A study of Mus musculus with 6 samples.

Results

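The Rtl1-antisense miRNAs are 10 mature miRNAs, the 5p and 3p arms of miR-431, miR-433, miR-127, miR-434 and miR-136. They were chosen by name and position, as the miRNAs of 5 hairpins that lie on the strand opposite to Rtl1. All 10 were found among the 1506 miRNAs of the table. Their levels were compared between fibrinogen-treated and control oligodendrocyte progenitor cells (OPCs), the precursors of the oligodendrocytes (OLs) that make myelin. The summed level of the 10 miRNAs was nearly the same in both groups. The hairpins were less alike, since the level of miR-127 in fibrinogen-treated OPCs was 1.26 times that in control OPCs, whereas the level of miR-434 was 0.866 times and that of miR-136 0.730 times the control level, with both arms added. The control mean of miR-136 was raised by its highest control library, at 6515 TPM. With the trend of fold change with hairpin GC content removed, the log2 fold changes of miR-127-5p and miR-127-3p were near 0, at 0.08 and 0.04. None of the 10 miRNAs passed the main test, and the sums of the hairpins were not tested.

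The study asked how fibrinogen, a clotting protein that leaks from blood into injured brain, acts on OPCs. Small RNA was sequenced in 3 libraries of fibrinogen-treated and 3 of control OPCs. All 6 came from wild-type C57BL/6 mice. According to the methods, the cells were grown from the cortex of newborn pups and shaken free of other glia. The methods name a vehicle for OPCs that received no fibrinogen, whereas the paper calls the controls of the miRNA sequencing untreated. The column headers give 2.5 mg for fibrinogen, and the methods give a concentration of 2.5 mg/mL. Libraries were numbered by mouse, and neither the duration of treatment nor the number of pups behind a library is given in the sources used here. The methods say in general that experiments were repeated independently, but not from which cultures these libraries came, so p-values measure only the spread between libraries, which may be technical.

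Levels are in the deposited unit, named TPM, which here is RPM: reads scaled to the library total, uncorrected for length. The reads of the listed miRNAs, recovered from the TPM values, came to 12120909 to 13624613 per library after fibrinogen and 11897645 to 14847034 in the control group. The listed values summed to 972508 to 986727 TPM after fibrinogen and 992890 to 1007870 TPM in the control group. The total used for scaling was therefore not exactly that of the listed miRNAs. The marker miRNAs of the OL lineage were present, at 11450 to 14332 TPM in fibrinogen-treated OPCs and 12241 to 16643 TPM in control OPCs, summed over 4. Those of neurons were present at higher levels. Their 8 miRNAs summed to 97845 to 102079 TPM in fibrinogen-treated OPCs and 120561 to 128187 TPM in control OPCs, with no overlap. Of the 8, 1 was lower after fibrinogen by limma, miR-128-3p (log2 fold change -0.49). It was the largest part of this sum, at 41470 to 48586 TPM after fibrinogen and 59516 to 69466 TPM in the control group. The lack of overlap in the sum leaned on it. None of these 8 was at 0. Of their fold changes 3 were above 0 and 5 below, and miR-129-5p was higher after fibrinogen without overlap, at 0.52, though it did not pass the test. Markers of mesenchymal and mural cells, 5 in number, summed to 3183 to 4328 TPM after fibrinogen and 2419 to 3022 TPM in the control group, also without overlap. Of the 4 tested, 0 passed the threshold and all 4 fold changes were above 0. Most of this sum was miR-143-3p, at 2642 to 3649 TPM after fibrinogen and 2059 to 2453 TPM in the control group. Of the 4 tested, only miR-143-3p did not overlap. Neither sum was tested, and among single miRNAs 33.1% of all tested did not overlap in either direction. The endothelial pair of markers summed to 10599 to 13328 TPM after fibrinogen and 10630 to 14101 TPM in the control group, and 5 markers of immune cells to 1741 to 2065 TPM after fibrinogen and 1756 to 2470 TPM in the control group. Markers of red blood cells, 3 in number, summed to 146 to 171 TPM after fibrinogen and 167 to 594 TPM in the control group. Of these, miR-144-3p was lower in every fibrinogen library without passing the test. The groups overlapped for miR-451a (log2 fold change -1.13) and for miR-486a-5p, which went the other way (0.20). The cells are called OPCs by their label, and the part of RNA from these other cell types in the results below was not tested. In such bulk samples, fewer cells of a type and less RNA per cell cannot be told apart.

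Rtl1 is a gene derived from a retrotransposon, in the imprinted Dlk1-Dio3 region of the mouse genome. Its mRNA is transcribed from the paternal chromosome, whereas the noncoding RNAs of the region, including the transcript that runs antisense to Rtl1, are transcribed from the maternal one. The hairpins in that antisense transcript release miRNAs which pair with the Rtl1 mRNA along their whole length and are known to direct its cleavage. Each hairpin gives a 5p and a 3p arm, and as a rule the cell loads one of them into the Argonaute protein and degrades much of the other. The mRNA of Rtl1 was not analysed here.

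The mature sequences, from RefSeq (GRCm38.p6), show what the 10 members do and do not share. Capitals mark the seed, bases 2 to 8 from the 5′ end, with which a miRNA finds most of its targets.
miR-431-5p: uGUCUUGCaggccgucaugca
miR-431-3p: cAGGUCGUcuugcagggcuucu
miR-433-5p: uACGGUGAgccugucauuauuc
miR-433-3p: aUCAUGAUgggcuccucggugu
miR-127-5p: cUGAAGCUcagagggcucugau
miR-127-3p: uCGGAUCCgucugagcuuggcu
miR-434-5p: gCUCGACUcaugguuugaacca
miR-434-3p: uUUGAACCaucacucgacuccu
miR-136-5p: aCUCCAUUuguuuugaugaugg
miR-136-3p: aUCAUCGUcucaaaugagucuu
No member had the seed of another, and none shared its seed with any other of the 1679 mature miRNA names of the RefSeq table. What they have in common is their place in the genome and not their seed. Each mature sequence was found in 1 hairpin, so their reads were not open to splitting between copies. Some arms resemble their partner on the same hairpin. Both arms of miR-431 contain gucuugcagg, 10 bases that hold the seed of the 5p arm, and both arms of miR-434 contain uuugaacca, 9 bases that hold the seed of the 3p arm.

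The 5 hairpins matched chromosome 12 of GRCm39 exactly, each at 1 place and on the plus strand. Mir431 lies at chr12:109556881-109556971, Mir433 at chr12:109558149-109558272, Mir127 at chr12:109559280-109559349, Mir434 at chr12:109560940-109561033 and Mir136 at chr12:109561761-109561822. Rtl1 lies on the minus strand at chr12:109555627-109582007. All 5 hairpins fall inside its coding sequence, which is 5232 bp long, and together they span 4942 bp of it. They are not the only hairpins annotated on the plus strand there. Mir432, at chr12:109561390-109561464, also lies inside the coding sequence, and Mir341 and Mir1188 lie within the gene. These are not among the members. The hairpins of miR-127 and miR-136, whose arms had fold changes on opposite sides of 0, are shown with both mature arms in capitals.
miR-127 hairpin: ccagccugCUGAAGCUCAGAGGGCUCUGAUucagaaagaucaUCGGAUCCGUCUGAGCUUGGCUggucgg
miR-136 hairpin: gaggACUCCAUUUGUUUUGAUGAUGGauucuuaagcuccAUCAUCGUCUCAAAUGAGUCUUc
The pairing with Rtl1 is shown for miR-127-3p, the most abundant member. The stretch of Rtl1 mRNA opposite to it, with the bases that pair with the seed in capitals, reads as follows.
Rtl1 mRNA opposite miR-127-3p: agccaagcucagacGGAUCCGa
The hairpins differ in base composition. Their GC content was 60.4% for miR-431, 56.5% for miR-433, 57.1% for miR-127, 45.7% for miR-434 and 40.3% for miR-136.

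All 10 members passed the filter of at least 1 TPM in at least 3 libraries, as did 607 miRNAs in all. Their levels spanned several orders of magnitude, although they share a host transcript. miR-127-3p was the most abundant in every library. Both arms of miR-136 and of miR-434 followed, in an order that changed between libraries, then miR-127-5p, miR-431-5p, miR-433-3p, miR-431-3p and miR-433-5p. At the low end, miR-433-5p rested on 33 to 85 reads per library and miR-431-3p on 93 to 210, whereas miR-127-3p rested on 70137 to 117740.

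**Figure D1:**
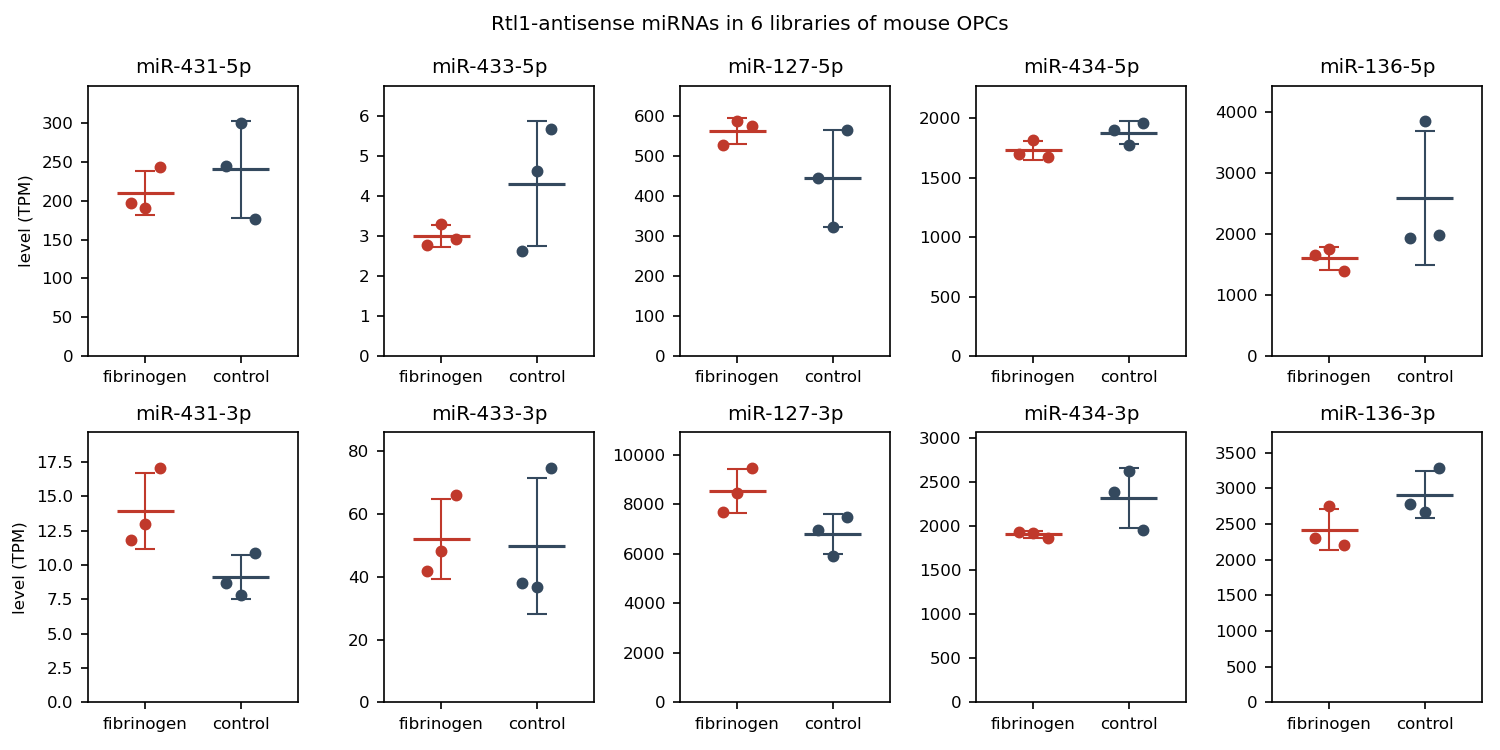
Level of each Rtl1-antisense miRNA in TPM (vertical axes, from 0, a separate scale per panel) in the 3 fibrinogen-treated libraries (red) and the 3 control libraries (dark blue). Points are libraries, horizontal lines means and bars SDs. The fibrinogen points of miR-127-3p and miR-431-3p lie above all control points and those of miR-434-3p and miR-136-5p below them, and 1 control library stands high for miR-136-5p at 3854 TPM.

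The main comparison used limma on log2(TPM + 1), with p-values adjusted over all 607 miRNAs by the Benjamini-Hochberg method. Fold changes are fibrinogen over control. Of the 10 members, 0 were higher and 0 were lower at an adjusted p under 0.05, where 2.14% of all tested miRNAs were higher and 0.659% were lower. At an unadjusted p under 0.05, 2 members were higher and 0 lower, that is 20% and 0%, beside 20.1% and 5.60% of all tested miRNAs. Of the 10 fold changes 4 were above 0 and 6 below, and their median was -0.14, whereas the median over all tested miRNAs was 0.13 with 62.9% above 0. Median-of-ratios scaling brought the median over all miRNAs to 0.00, and the members' median was then -0.28. With that shift, the direction of miR-433-3p turned, and those of the other 9 members did not.

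miR-127-3p, known in human cells to repress the oncogene BCL6, was measured at 7682, 8463 and 9470 TPM in fibrinogen-treated OPCs and at 6951, 5899 and 7483 TPM in control OPCs. All 3 fibrinogen libraries lay above all 3 control libraries, the closest pair being fibrinogen library 1 and control library 3. The means were 8538 ± 896 and 6777 ± 806 TPM (SD, n = 3 each), a ratio of 1.26. On the log2 scale the change was 0.33 ± 0.12 (SE), with an adjusted p of 0.168 by limma. It was 0.20 after scaling and 0.04 after the trend of fold change with hairpin GC content was removed, so its size depended on that setting.

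Its partner arm miR-127-5p was present at 527, 588 and 576 TPM in fibrinogen-treated OPCs, against 446, 323 and 566 TPM in control OPCs. The fibrinogen libraries lay close together and the control libraries far apart, and control library 3 reached into the fibrinogen range. limma gave a log2 fold change of 0.38 ± 0.20 (adjusted p = 0.285). It was 0.57 without control library 3 and 0.16 without control library 2.

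In the main comparison miR-136-5p had the largest fold change of the members in size. This did not hold without control library 2, without fibrinogen library 1 or with the GC trend removed. miR-136-5p was measured at 1653, 1754 and 1395 TPM in fibrinogen-treated OPCs and at 1928, 3854 and 1989 TPM in control OPCs. The groups did not overlap, but control library 2 held about as much as the other control libraries combined. The log2 fold change was -0.62 ± 0.27 (limma, adjusted p = 0.199), and without control library 2 it was -0.30 (adjusted p = 0.241). miR-136-3p, from the other arm of the same hairpin, was at 2304, 2745 and 2202 TPM after fibrinogen and at 2781, 2661 and 3287 TPM in the control group. Here control library 2 was the lowest of its group, and fibrinogen library 2 overlapped the control range. The log2 fold change was -0.27 ± 0.13 (adjusted p = 0.231), and it was -0.18 without control library 3.

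miR-434-3p was at 1938, 1918 and 1866 TPM in fibrinogen-treated OPCs and at 2389, 2624 and 1952 TPM in control OPCs. The fibrinogen libraries were nearly equal and all below the control libraries, although control library 3 lay just above them. The log2 fold change was -0.27 ± 0.13 (limma, adjusted p = 0.21), and it was -0.39 without control library 3 and -0.18 without control library 2. miR-434-5p was at 1700, 1821 and 1673 TPM after fibrinogen and at 1904, 1773 and 1961 TPM in the control group. Control library 2 fell inside the fibrinogen range, and the log2 fold change was -0.12 ± 0.09 (adjusted p = 0.439).

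miR-431-5p, known to act in the regrowth of axons in mouse sensory neurons, was at 197, 190 and 243 TPM in fibrinogen-treated OPCs and at 245, 300 and 176 TPM in control OPCs. The groups overlapped, and the control group held both the highest and the lowest library. This gave a log2 fold change of -0.17 ± 0.21 (limma, adjusted p = 0.63). It was -0.38 without control library 3, -0.28 without fibrinogen library 3, -0.10 without fibrinogen library 2 and near 0 without control library 2, and -0.52 with the GC trend removed. The minor arm miR-431-3p was at 11.8, 13.01 and 17.1 TPM after fibrinogen and at 8.71, 7.82 and 10.9 TPM in the control group. Every fibrinogen library was above every control library. The log2 fold change was 0.56 ± 0.21 (adjusted p = 0.17), and it was 0.20 with the GC trend removed.

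miR-433-3p was at 41.7, 48.2 and 66.1 TPM in fibrinogen-treated OPCs and at 37.8, 36.6 and 74.6 TPM in control OPCs. The highest library of each group was number 3, and the groups overlapped. The log2 fold change was 0.12 ± 0.31 (limma, adjusted p = 0.837). Its direction turned after scaling, at -0.01, with the GC trend removed, at -0.16, and when 1 of 3 libraries was left out in turn. Without fibrinogen library 3 it was -0.07, without control library 1 -0.03 and without control library 2 -0.06. miR-433-5p, the least abundant member, was at 2.76, 3.31 and 2.93 TPM after fibrinogen and at 2.61, 4.63 and 5.68 TPM in the control group. The groups overlapped, and the log2 fold change was -0.36 ± 0.25 (adjusted p = 0.383). Without control library 3 it was -0.18, without control library 1 -0.62, and with the GC trend removed -0.64.

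**Figure D2:**
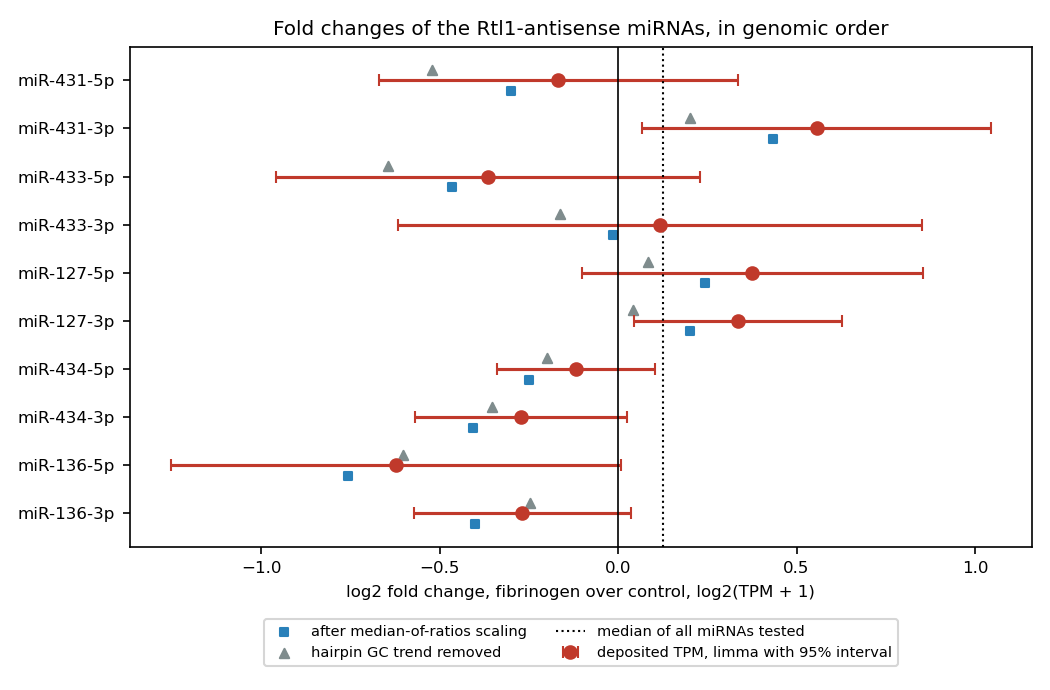
Log2 fold changes of the 10 members, fibrinogen over control (horizontal axis), in genomic order from top to bottom. Red points are limma values with 95% intervals, blue squares the values after median-of-ratios scaling, grey triangles those relative to the trend with hairpin GC content, and the dotted line is the median of all tested miRNAs (0.13). Both arms of miR-127 lie to the right of 0 and both arms of miR-434 and miR-136 to the left under each of the 3 settings.

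Counted by overlap, 4 of the 10 members had groups that did not overlap, 2 higher (miR-127-3p and miR-431-3p) and 2 lower (miR-434-3p and miR-136-5p). Over all tested miRNAs 24.4% did not overlap and were higher, and 8.73% did not overlap and were lower. An exact permutation test over 3 against 3 libraries cannot go below 0.1, and it gave 0.1 for these 4 and 0.2 to 0.8 for the other 6. DESeq2 on the reads recovered from the TPM values called 3 members lower, where 7.77% of the miRNAs it tested were lower, and 0 members higher, where 5.67% were higher. The 3 were miR-136-5p at -0.84 (adjusted p = 0.0291), miR-136-3p at -0.41 (adjusted p = 0.0409) and miR-434-3p at -0.44 (adjusted p = 0.0497). The quasi-likelihood test of edgeR on the same reads called none of the 10, with adjusted p of 0.171 for miR-136-5p, 0.148 for miR-136-3p and 0.169 for miR-434-3p.

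Across all known miRNAs that could be given a hairpin GC content, 417 of 514, the fold change tended to be higher where the GC content was higher (Spearman's rho 0.40, a description across miRNAs, which are not independent). The hairpins of miR-434 and miR-136 had the lowest GC content of the 5, and all 4 of their arms had fold changes below 0. Relative to the GC trend, both arms of miR-127 were near 0, at 0.08 and 0.04, whereas miR-136-5p was at -0.60 and miR-136-3p at -0.25. miR-434-5p was at -0.20 and miR-434-3p at -0.35. From the hairpins rich in GC, miR-433-5p was at -0.64 and miR-431-5p at -0.52, while miR-433-3p was at -0.16 and miR-431-3p at 0.20. None of the 10 passed limma in that setting either. The part of GC content in the differences between hairpins was not tested.

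The sum of the 10 members was 16057, 17544 and 17512 TPM in fibrinogen-treated OPCs and 16693, 17483 and 17506 TPM in control OPCs. The groups overlapped, with means of 17037 ± 849 and 17227 ± 463 TPM (SD, n = 3 each). This was 1.65% to 1.79% of the listed reads after fibrinogen and 1.66% to 1.76% in the control group. The share of this sum taken by miR-127-3p did not overlap between the groups. It was 47.8%, 48.2% and 54.1% in fibrinogen-treated OPCs and 41.6%, 33.7% and 42.7% in control OPCs. Without miR-127-3p, the other 9 members summed to 8375, 9080 and 8042 TPM after fibrinogen and to 9742, 11585 and 10023 TPM in the control group. Every fibrinogen library was then below every control library. As the total was nearly the same in both groups, the larger share of miR-127-3p and the lower sum of the other 9 are not separate differences. Neither was tested, and among single miRNAs 33.1% of all tested did not overlap in either direction.

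Ratios of members within a library do not depend on the library total. miR-127-3p and miR-136-5p were chosen for such a ratio after their values were seen, so it is given as a description. There were 4.65, 4.83 and 6.79 reads of miR-127-3p per read of miR-136-5p in fibrinogen-treated OPCs, against 3.61, 1.53 and 3.76 in control OPCs. The low value of control library 2 goes with its high miR-136-5p, but the other control libraries were below all fibrinogen libraries as well. The ratio of miR-127-3p to miR-434-3p was 3.96, 4.41 and 5.07 after fibrinogen and 2.91, 2.25 and 3.83 in the control group, also a description. Neither ratio could overlap between the groups. In every fibrinogen library miR-127-3p was above, and miR-136-5p and miR-434-3p below, all control libraries, so the ratios add no separate difference.

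With both arms added, miR-127 had 9102 ± 919 TPM in fibrinogen-treated OPCs and 7222 ± 926 TPM in control OPCs (SD, n = 3 each), and the groups did not overlap. The miR-434 hairpin had 3639 ± 99.5 TPM after fibrinogen and 4201 ± 255 TPM in the control group. The miR-136 hairpin had 4018 ± 454 TPM after fibrinogen and 5500 ± 924 TPM in the control group. Its control mean was raised by control library 2, at 6515 TPM beside 4709 TPM in control library 1 and 5277 TPM in control library 3. The miR-434 and miR-136 hairpins were both lower in every fibrinogen library than in every control library. For miR-431 (224 ± 31.3 TPM after fibrinogen, 249.6 ± 60.6 TPM in the control group) and miR-433 (55.0 ± 12.7 TPM after fibrinogen, 54.0 ± 22.8 TPM in the control group) the groups overlapped. The sums were not tested, and among single miRNAs such a lack of overlap was common, at 33.1% of all tested in either direction.

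The choice of arm was compared as the share of the 3p arm in the reads of both arms. It set the hairpins apart far more than it did the groups. The 3p arm took 93.8% ± 0.42 of miR-127 in fibrinogen-treated OPCs and 93.9% ± 0.92 in control OPCs (SD, n = 3 each; exact permutation test, two-sided, p = 1). For miR-431 the 5p arm dominated, and the 3p arm took 6.20% ± 0.49 after fibrinogen and 3.93% ± 1.70 in the control group (exact p = 0.2). The arms of miR-434 were close to equal, with 52.4% ± 1.02 from the 3p arm after fibrinogen and 55.1% ± 4.92 in the control group (exact p = 0.5). The difference of -2.64 percentage points was -0.33 without control library 2 and -5.23 without control library 3.

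For miR-433 the 3p share was 93.8%, 93.6% and 95.8% in fibrinogen-treated OPCs and 93.5%, 88.8% and 92.9% in control OPCs. The groups did not overlap, though by only a narrow margin, and the exact p of 0.1 is the smallest that this design allows. The difference of 2.63 percentage points was 1.14 without control library 2, and the 5p arm behind this share had few reads. For miR-136 it was 58.2%, 61.0% and 61.2% after fibrinogen and 59.1%, 40.8% and 62.3% in the control group (exact p = 0.7). Control library 2 alone had more 5p than 3p reads of miR-136. The difference of the means, fibrinogen minus control, was 6.08 percentage points, and it was -0.53 without that library. For none of the 5 hairpins could this exact test reach 0.05, so a difference in arm share is not shown for any of them.

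**Figure D3:**
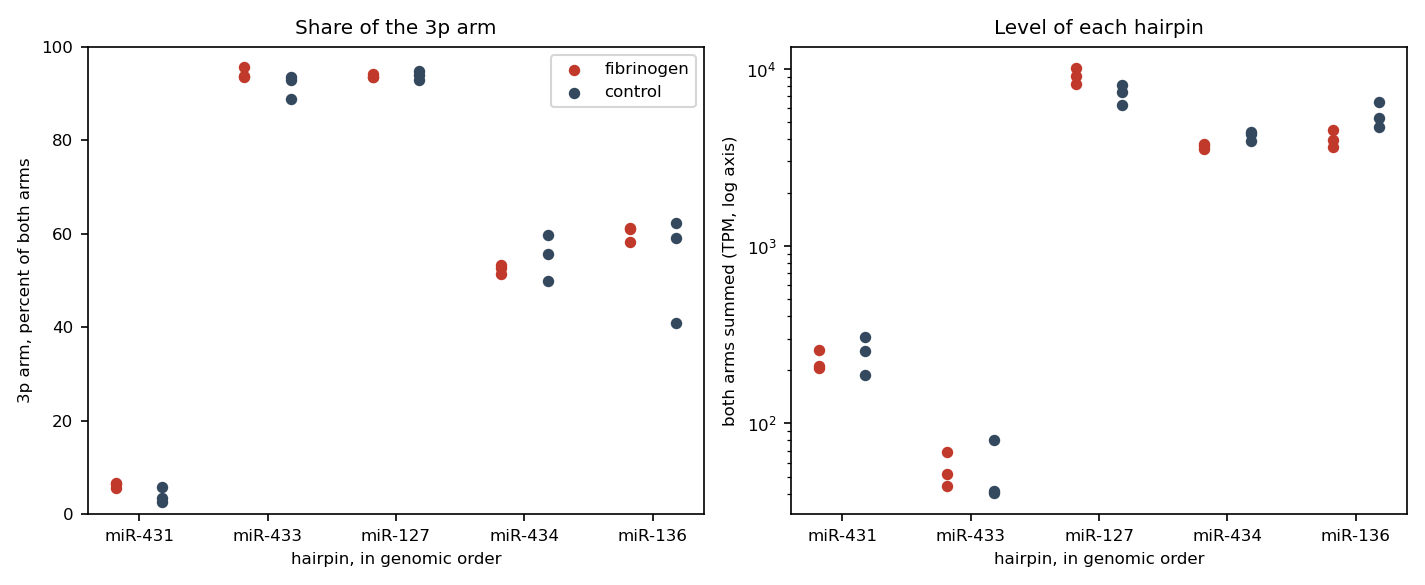
Left, percent of a hairpin's reads that came from the 3p arm (vertical axis, 0 to 100), and right, both arms summed in TPM (log axis), for the 5 hairpins in genomic order. Each point is a library, fibrinogen in red to the left of control in dark blue. Arm shares cluster by hairpin, from 2.54% to 6.57% for miR-431 to at least 88.8% for miR-433 and miR-127, and 1 control library of miR-136 stands apart at 40.8%.

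Whether control library 2 stood apart for more than miR-136-5p was looked at after its value was seen. A miRNA was counted where a library had at least 1.5 times the level of both other libraries of its group. In control library 2 this held for 1 of the 10 members, miR-136-5p, and for 9.23% of all 607 miRNAs. In control library 3 it held for 1 member, miR-433-3p, and for 10.05% of all. In the fibrinogen libraries it held for none of the members and for 2.47% to 5.60% of all. In the miRNAs of the more distant Mirg cluster, control library 2 stood apart for 9 of 64, among them miR-376a-5p, miR-380-3p and miR-1197-3p, and control library 3 for 6 of 64.

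The other miRNAs of the same imprinted region give the context. A list of the neighbours of the Rtl1-antisense hairpins and of those hosted by the noncoding RNA Rian held 23 names in the table. Of these 14 were tested and 0 were higher or lower by limma, with a median log2 fold change of 0.16. The distant cluster hosted by Mirg held 73 names, of which 64 were tested and 0 were higher or lower, with 32 fold changes above 0 and 32 below and a median of 0.00. At an unadjusted p under 0.05 the counts were 4 higher and 1 lower for the neighbours (28.6% and 7.14%) and 7 higher and 5 lower for Mirg (10.9% and 7.81%), beside 20.1% higher and 5.60% lower over all tested miRNAs. After scaling the medians were 0.05 for the neighbours and -0.13 for Mirg.

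In summed level, the Mirg miRNAs were close to the 10 Rtl1-antisense miRNAs, with 16326 to 17003 TPM after fibrinogen and 15362 to 16454 TPM in the control group. The neighbours were far less abundant, with 765 to 889 TPM after fibrinogen and 797 to 867 TPM in the control group. Single hairpins of the region also had arms on both sides of 0. miR-337-3p, from a hairpin before the start of Mir431, had a log2 fold change of -0.61 ± 0.26, and miR-337-5p from the same hairpin had 0.05 ± 0.12. The latter was within its SE of 0. Control library 2 stood high for miR-337-3p, at 159 TPM beside 85.7 and 94.7 TPM in control libraries 1 and 3. The hairpin Mir3071 is annotated across Mir136 on the opposite strand. Its miR-3071-3p was listed at 0 in 5 of the 6 libraries and at 0.0814 TPM, a single read, in fibrinogen library 3.

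**Figure D4:**
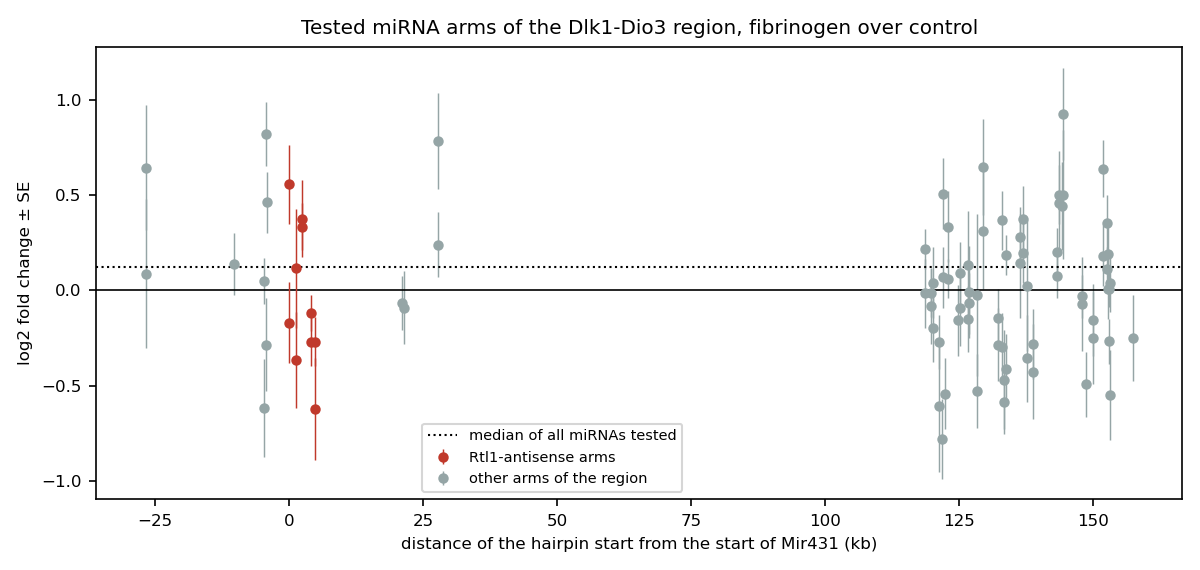
Log2 fold change, fibrinogen over control (vertical axis, ± SE from limma), of the 86 tested miRNA arms of the Dlk1-Dio3 region that could be placed on the genome, against the distance of its hairpin from the start of Mir431 in kb. Red points are the 10 Rtl1-antisense arms, grey points the other arms, and the dotted line is the median of all tested miRNAs (0.13). The members lie within 4942 bp and range from -0.62 to 0.56, inside the range of the other arms of the region.

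Over the 6 libraries, the miRNAs whose log2 level followed that of the members' sum most closely were miR-669d-5p (Pearson's r 0.95), novel_139 (0.91), miR-666-3p (0.90), novel_102 (0.89) and miR-7a-2-3p (0.87). These values are descriptions over 6 libraries that share their treatment groups. The sum itself varied little, and most of these 5 miRNAs were rare. Of them, miR-666-3p lies in the Mirg cluster and had 34.0, 44.7 and 46.2 TPM after fibrinogen and 42.1, 51.3 and 44.7 TPM in the control group.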

How the data were processed

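Small RNA libraries of cultured OPCs were used, 3 fibrinogen and 3 control. The authors removed adapters (cutadapt 1.15) and duplicate reads, mapped the rest with Bowtie 1.1.2 and counted miRBase miRNAs with miRDeep2. The methods name GRCm39 and the labels mm10, and the table holds no coordinates. The deposited values, called TPM, are RPM (reads scaled to the library total, with no length correction), and 99.8% to 100% of those above 0 were whole reads, within 0.1, after division by each library's step. A count of 0 allows up to 3 reads, counting error only. The table lists 1198 known and 308 predicted miRNAs.

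Groups were compared with limma 3.58.1 in R 4.3.3 (lmFit, eBayes with a trend) on log2(TPM + 1), for the 607 miRNAs that reached 1 TPM in 3 or more libraries, with Benjamini-Hochberg adjustment over all of them. Alternatives were scaling by median of ratios, a filter at 10 TPM or none, a pseudocount of 0.1 or 5, the replicate number as a block, each library left out, edgeR 4.0.16 and DESeq2 1.42.0 on recovered reads, and removal of the hairpin GC trend. The limma and count fits were tested on simulated data. Permutation tests were exact and two-sided. The text names the 10 members, the other miRNAs of the region and marker miRNAs by list. The members and lists were chosen with earlier results of these data known. Sequences were matched by name to RefSeq (10 of 10 members) and placed on GRCm39 by exact match.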

Additional observations from a re-analysis of the deposited data

How the results depend on the processing

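Of 149 recomputed fold changes of the 10 members, 138 kept their direction and side of the threshold, 3 passed the threshold and 8 changed direction. DESeq2 called 3 members lower (main 0), and no other alternative called any member. The fold change of miR-433-3p (main 0.12) was -0.013 after scaling, -0.079 by edgeR, -0.075 by DESeq2, -0.16 with the GC trend removed, and -0.066 to 0.45 with 1 library left out. That of miR-431-5p (main -0.17) was -0.38 to 0.0078 with 1 library left out, the only change of direction being without control library 2. miR-433-5p was not tested at a minimum of 10 TPM. The log2 ratio of summed levels (main -0.02) was -0.15 after scaling and -0.30 without miR-127-3p. Over all miRNAs tested, 13 were higher and 4 lower. Without a filter 8 were higher, at a minimum of 10 TPM 7, by edgeR 8, by DESeq2 27 and with the GC trend removed 1, and with 1 library left out 0 (without fibrinogen library 1) to 39 (without control library 3). By DESeq2 37 were lower, with the GC trend removed 1, and with 1 library left out 0 (without control library 1 or 2) to 6 (without fibrinogen library 3). The setting with the GC trend removed held only the 417 known miRNAs with a hairpin GC content. Predicted miRNAs, which made up part of the calls in the main comparison, could not be called there, so its counts are of a smaller set. The causes were not tested.

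With the replicate number as a block (replicate block), 11 miRNAs were higher and 4 lower, and 0 of the 10 members were called in either direction. Residuals of libraries with the same number had correlations of 0.04, 0.23 and 0.12, and those with different numbers -0.20 to 0.09, so pairing was not assumed. With 3 libraries in each group, and few reads for miR-433-5p and miR-431-3p, small differences were not detectable.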
